A study of Mus musculus with 2 samples.

Results

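An arched band of spots in a mouse brain section, high in Gpr161 and Pde11a, was described across genes. The section was profiled with Visium CytAssist, a spatial assay in which probe pairs are joined where they meet their RNA and are then counted for each spot of a slide as unique molecular identifiers (UMIs). A spot is a small region that can hold several cells of different types, or part of one. The labels name 2 samples of male 6-month-old brain. One is G2-3, a line carrying A53T alpha-synuclein, and one is wild type (WT). The sources used here do not name the promoter of the transgene. The matrices, barcodes and gene tables of both samples were identical, so they were treated as 1 library, and no genotype is assigned to it. Nothing could be compared between G2-3 and WT, there were no replicates and no test was possible.

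The arc was selected on measured values. Each of the 2485 tissue spots with at least 500 UMIs was scored by the mean log level of Gpr161, Pde11a, Cpne7, Krt73 and Pou3f1, and the 140 highest spots were taken, which is 5.63% of the tissue spots. The score (natural log of 1 plus UMIs per 10000) was 1.54 in the highest spot, 0.820 in the last spot taken and 0.819 in the first spot left out, so the band has no sharp edge in this measure. The arc held 1625851 UMIs, 7.74% of those in tissue. Its spots had a median of 11351.5 UMIs (lowest 1235, highest 28915), against 6460 in the other 2345 tissue spots. A further 3 groups were chosen by their own scores outside the arc for comparison, all in the same section. The deep cortex spots (n = 140) were the highest in Vxn, Myl4, Rprm, Syt6 and Hs3st4, and had a median of 9286 UMIs. The dentate spots (n = 55) were the highest in C1ql2, Pcdh20, Prox1 and Dsp, with a median of 30411 UMIs. The neuropil spots (n = 140) were the highest in Ddn, whose mRNA lies in dendrites, and Gng7, with a median of 3752 UMIs.

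The hippocampus is a folded sheet of cortex. Its pyramidal neurons form a thin cell layer divided into the fields CA1, CA2 and CA3, which continues into the subiculum, and the granule cells of the dentate gyrus form a second layer that lies within the fold. CA1 and the subiculum carry the main output of the hippocampus. The deep layers of the neighbouring neocortex hold layer 5 neurons that project to the brainstem and spinal cord, layer 6 neurons that project to the thalamus, and a thin layer 6b beside the white matter. White matter lies between these cortical layers and the hippocampal pyramidal layer.

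Position on the slide was not used to choose the spots. Of the 140 arc spots, 130 had another arc spot among their 6 grid neighbours. They formed 13 connected groups, of which the largest held 88 spots (array rows 17 to 28, columns 32 to 80) and the next 40 spots, while 10 spots stood alone. The band curved over the dentate spots without touching them. The nearest dentate spot was between 2.65 and 27.4 spot spacings away (median 7.38). The arc ran along the inner side of the deep cortex spots. The nearest of those was between 1 and 20.4 spacings away (median 2.65), and 27 arc spots had a deep cortex spot as a neighbour. A neuropil spot was the neighbour of 33 arc spots. A few spots lay far off in the lower part of the section, the farthest 35.6 spacings from the largest group. That spot had 1235 UMIs and no UMI of the CA1 list used below. Across the 128 spots of the largest 2 groups, the counts of genes at least 2-fold different from each comparison group were 1207, 244, 1015 and 567 for other tissue, deep cortex, dentate and neuropil spots, against 1141, 231, 1024 and 560 with all 140 spots.

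**Figure D1:**
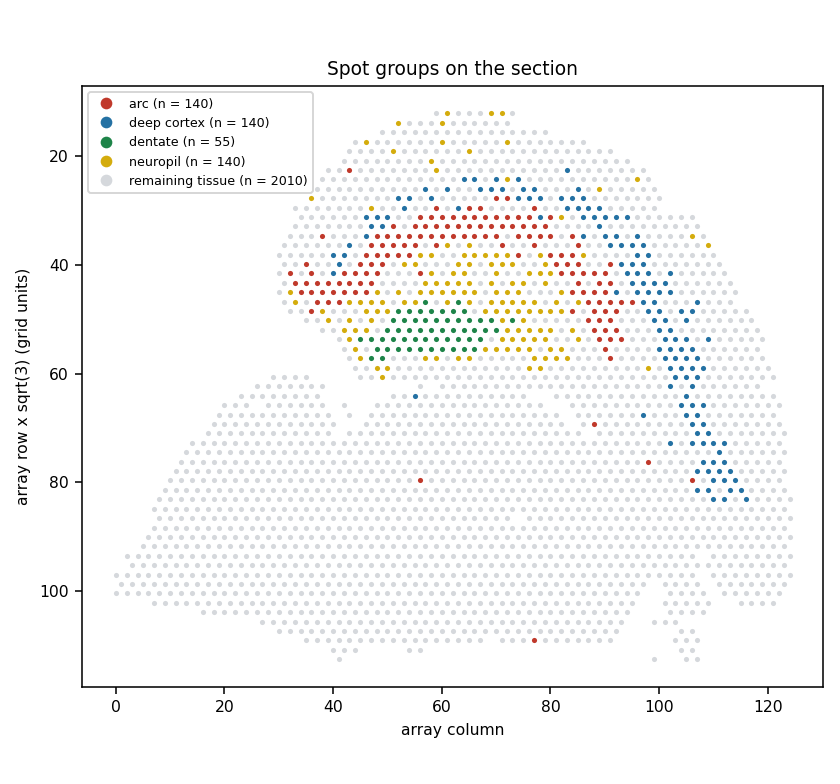
Grid places of the 2485 tissue spots, with the array column across and the array row, scaled so that spacings are equal, down the page. The 140 arc spots curve over the 55 dentate spots and under the 140 deep cortex spots, the neuropil spots lie mostly between arc and dentate, and grey points are the 2010 spots in none of these groups.

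The 5 genes of the score are given as a description only, since they chose the spots. Gpr161 encodes an orphan receptor of the primary cilium that restrains hedgehog signalling. It had 292 UMIs per 1000000 (CPM, over the summed counts of a group) in the arc, against 31.1 CPM in the other tissue spots. Pde11a encodes a phosphodiesterase that degrades cAMP and cGMP, known in rodent brain for its restriction to the hippocampal formation, mainly its ventral part. It had 106 CPM in the arc, against 7.43 CPM in the other spots. Cpne7, a calcium-dependent phospholipid-binding copine, had 1343 CPM in the arc and 196 CPM in the other spots. Krt73, a keratin otherwise known from hair follicles, had 53.5 CPM in the arc and 1.96 CPM in the other spots. Pou3f1, a POU-domain transcription factor, had 147 CPM in the arc and 21.2 CPM in the other spots.

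The 5 genes were rarely all seen in 1 spot. All 5 had a UMI in 23 arc spots, 4 in 59, 3 in 50 and 2 in 8. In the other tissue spots, 0 had all 5 genes and 9 had 4 of them. Cpne7 was seen in every arc spot and in 45.9% of the other spots. Gpr161 was seen in 94.3% of arc spots, against 19.5% of the others, and Krt73 in 34.3% of arc spots, against 1.19% of the others. In the deeper dentate spots the same shares were 61.8% for Cpne7, 27.3% for Gpr161 and 0 of 55 spots for both Krt73 and Pou3f1. A count of 0 in 55 spots allows a share of up to 6.53% (Wilson, 95%). In the genome assembly GRCm38.p6 the 5 genes lie on different chromosomes, Gpr161 at chr1:165281184-165326747, Pde11a at chr2:75985808-76339145, Pou3f1 at chr4:124657646-124660655, Cpne7 at chr8:123117313-123135185 and Krt73 at chr15:101793304-101802360.

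Among 13 lists of region markers, which hold none of the score genes, the CA1 list had the highest median of the arc over all other tissue spots, though not over the single groups described further on. All 8 measured genes of the CA1 list were higher in the arc than in other tissue, 7 of them at least 2-fold, with a median log2 ratio of 1.27. The median over all 10998 genes used was -0.077, 41.2% of genes lay above 0, and 1.53% passed 2-fold in this direction. Ratios throughout are of CPM on the log2 scale, over genes with at least 100 UMIs in both groups together, with an exact 95% interval that covers counting error only. The subiculum list had 5 of 6 genes higher (median 0.71) and the layer 5 list 6 of 7 (median 1.11). The lists of CA2 (2 of 5 higher, median -1.03), CA3 (1 of 7, median -0.70), dentate granule cells (0 of 10, median -1.59), layer 6b (0 of 5, median -1.06) and upper cortical layers (0 of 7, median -1.08) were mostly lower.

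Ccn3, a secreted matricellular protein used as a CA1 and deep-layer marker, had 198 CPM in the arc, against 38.3 CPM in the other tissue (log2 ratio 2.37, interval 2.18 to 2.56). By spot it ranged between 0 and 1034 CPM in the arc with a median of 164 CPM, against 0 to 1027 CPM with a median of 0 in the other tissue. It was detected in 75.0% of arc spots and 16.8% of other spots, so single spots of both groups overlapped over nearly the whole range. Ndst4, a heparan sulfate sulfotransferase, had 88.6 CPM in the arc and 27.3 CPM elsewhere (log2 ratio 1.70, 1.42 to 1.97). Mpped1, a metallophosphoesterase, had 378 CPM in the arc and 130 CPM elsewhere (1.54, 1.41 to 1.67). Pex5l (TRIP8b), which regulates the traffic of HCN channels in CA1 dendrites, had 321 CPM in the arc and 126 CPM elsewhere (1.34, 1.21 to 1.48). Htr1a, the serotonin 1A receptor, had 57.8 CPM in the arc and 27.3 CPM elsewhere (1.08, 0.75 to 1.40). Wfs1, an endoplasmic reticulum protein and one of the most used CA1 markers, was the lowest of the list at 46.1 CPM in the arc and 34.9 CPM elsewhere (0.40, 0.04 to 0.75). Spink8, also on the list, was below the count minimum, with 32 UMIs in the arc and 27 UMIs in all other tissue.

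Taken spot by spot, the summed CA1 list had 0 to 2913 CPM in the arc with a median of 1201 CPM. Medians were 523 CPM in deep cortex spots, 209 CPM in dentate spots, 363 CPM in neuropil spots and 369 CPM in all other tissue. Of the 140 arc spots, 132 lay above the deep cortex median and 133 above the highest dentate spot. The groups still overlapped, since 25 arc spots lay above every deep cortex spot. The CA1 list was not alone in this. For the layer 5 list, 119 arc spots lay above the deep cortex median. For the genes shared by hippocampal fields 73 did, and for those shared by cortical layers 24. The summed dentate granule list (7 genes outside the score of the dentate spots) had a median of 256 CPM in the arc and 1655 CPM in dentate spots, and 0 arc spots reached the dentate median.

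**Figure D2:**
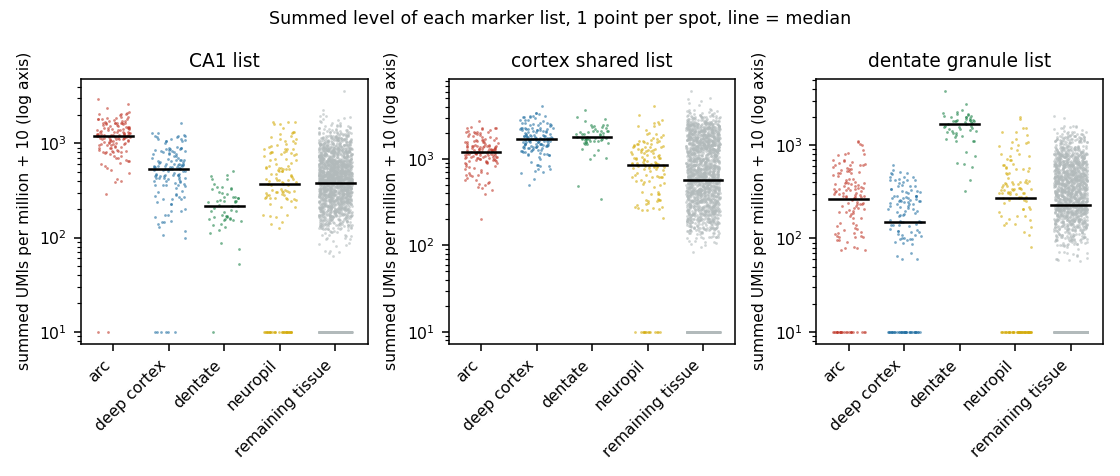
Summed UMIs per 1000000 of 3 marker lists in single spots on a log axis (10 added, so that 0 plots at 10), with 1 point per spot and a line at each group's median. The arc is the highest group for the CA1 list (median 1201 CPM), lies below the deep cortex spots for the list shared by cortical layers (1198 against 1672 CPM) and far below the dentate spots for the granule cell list (256 against 1655 CPM). Remaining tissue is the 2010 spots in none of the other groups.

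Beyond the lists, 168 genes were at least 2-fold higher and 973 at least 2-fold lower in the arc than in other tissue (1.53% and 8.85% of genes used, 10.4% in all). The other tissue includes spots with midbrain and hindbrain genes, and the count minimum favours genes of that larger group. Dcn, the proteoglycan decorin, had the highest ratio, with 86.7 CPM in the arc and 11.7 CPM elsewhere (2.89, 2.57 to 3.20). It was detected in 75 of 140 arc spots, between 0 and 429 CPM, and in 6.82% of other spots, where it reached 822 CPM. Decorin is made by fibroblasts and also marks ventral CA1 neurons. The meningeal fibroblast list was lower in the arc, with 0 of 5 genes higher and a median of -1.82, and its Igf2 had 48.0 CPM in the arc and 171 CPM elsewhere. Against deep cortex, however, Igf2 was the one gene of that list with enough UMIs, and it was higher in the arc, at 48.0 CPM against 23.1 CPM in deep cortex (1.05, 0.44 to 1.69). The part of fibroblasts in the Dcn level was not tested. The rest of the ventral hippocampus list did not go with Dcn. Coch had 0 UMIs in the arc and 201 elsewhere, at least 5.62-fold lower against a floor of 3 UMIs, and Col5a1 had 5.54 CPM in the arc and 23.3 CPM elsewhere (-2.07, -3.21 to -1.13).

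Fezf2, a transcription factor that specifies subcerebral projection neurons of layer 5, was second, with 228 CPM in the arc and 36.3 CPM elsewhere (2.65, 2.46 to 2.83). It was seen in 77.9% of arc spots, with a median of 203 CPM, and in 15.4% of other spots. Trpc4, a calcium-permeable cation channel, had 62.7 CPM in the arc and 10.4 CPM elsewhere (2.60, 2.24 to 2.95). Drd5, the dopamine D5 receptor, which couples to adenylyl cyclase, had 32.0 CPM in the arc and 6.35 CPM elsewhere (2.33, 1.84 to 2.81). Also among the 10 highest were Stac (2.54), Fbn2 (2.45), Ccn3, Cadps2 (2.30), Acp7 (2.30) and the cadherin Cdh6 (2.21). At the low end, the copine gene Cpne9 had 2 UMIs in the arc and 1312 elsewhere (-5.78, -8.83 to -3.93), and Klk6, a kallikrein of oligodendrocytes, had 1 and 522 UMIs (-5.45, -10.76 to -2.97). Tph2, which makes serotonin in raphe neurons, had 4 UMIs in the arc and 1585 elsewhere (-5.06), and Irx2, a hindbrain and midbrain patterning gene, had 0 against 1074 UMIs, at least 30.0-fold lower. Irx1 (-4.57), Cdh23 (-4.52), En1 (-4.33), Sfrp5 (-4.28), Fbln5 (-4.23) and Mapk13 (-4.22) followed.

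**Figure D3:**
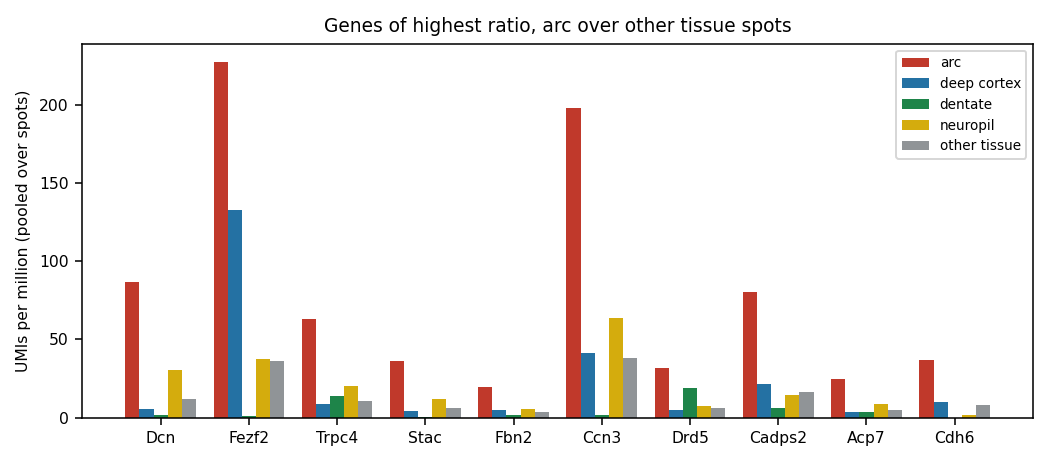
Level in UMIs per 1000000, pooled over the spots of each group, of the 10 genes with the highest ratios of the arc over the other 2345 tissue spots, which include the deep cortex, dentate and neuropil spots. The arc bar is the highest for each gene, and Fezf2 is also high in deep cortex spots (228 CPM in the arc and 133 CPM there).

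Against the deep cortex spots the arc differed in few genes. Of 5531 genes used, 124 were at least 2-fold higher (2.24%) and 107 at least 2-fold lower (1.93%), 4.18% in all, and 50.3% were above 0 (median 0.0022). As a description, the Pearson correlation of log CPM over 10987 genes was 0.964 between the arc and the deep cortex spots, 0.923 with the neuropil spots, 0.893 with the dentate spots and 0.965 with all other tissue spots, so the deep cortex spots were no more like the arc by this measure than the pooled rest of the section. Genes of one library are not independent replicates, and the groups differ in depth.

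Both the CA1 and the subiculum list stood higher in the arc than in the deep cortex spots. Of the 9 CA1 genes in the panel, 7 had enough UMIs, and these 7 were higher, 5 of them at least 2-fold (median 1.79). A gene that is low in one group can reach the count minimum through the other, as Ndst4, Fibcd1 and Man1a did here through the arc, so such counts describe the genes that passed and not the lists. With at least 500 UMIs, 2 CA1 genes were left, and their median was 0.59. The median of the 2 near-projecting genes, 1.86, was above that of the CA1 list. Ndst4 had 88.6 CPM in the arc and 5.78 CPM in deep cortex (3.94, 2.92 to 5.18). It was seen in 56.4% of arc spots and 4.29% of deep cortex spots. Fibcd1, an acetyl-group receptor widely used as a CA1 marker, had 67.7 CPM in the arc and 7.23 CPM in deep cortex (3.23, 2.29 to 4.33). Mpped1 barely differed, with 378 CPM in the arc and 329 CPM in deep cortex (0.20, 0.02 to 0.37). The 4 subiculum genes that passed, of 8 in the panel, were higher as well (median 1.37). Dlk1, a membrane-bound relative of the Notch ligands, had 167 CPM in the arc and 13.0 CPM in deep cortex (3.69, 3.00 to 4.46). The arc spots ranged between 0 and 1505 CPM with a median of 88.2 CPM, and the deep cortex spots between 0 and 335 CPM with a median of 0. Nos1, neuronal nitric oxide synthase, had 224 CPM in the arc and 96.1 CPM in deep cortex (1.22, 0.93 to 1.52), and Fn1, fibronectin, 64.0 and 22.4 CPM (1.51, 0.92 to 2.14).

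The genes shared by neocortical layers went the other way. Of 5 measured, 4 were lower in the arc and 2 at least 2-fold lower (median -0.31). Mef2c, an activity-regulated transcription factor, had 123 CPM in the arc and 416 CPM in deep cortex (log2 ratio -1.76). Neurod2, Lmo3 and Lmo4 lay within 0.31 of 0. Of the 6 layer 6b genes in the panel, 3 had enough UMIs, and these 3 were at least 2-fold lower, where 1.93% of all genes were. All 3 reached the count minimum through the deep cortex spots, so this count describes the genes that passed and not the list. Cplx3, a complexin, had 5 UMIs in the arc and 129 in deep cortex (-4.92, -6.57 to -3.66). Ccn2, the connective tissue growth factor that marks the subplate remnant, had 20.3 CPM in the arc and 148 CPM in deep cortex (-2.87, -3.44 to -2.33). The thalamus-projecting layer 6 marker Ntsr1 had 15.4 CPM in the arc and 57.1 CPM in deep cortex (-1.89, -2.60 to -1.23). Another 5 layer 6 genes were left out because they chose the deep cortex spots.

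Layer 5 genes did not separate in this way. Of the 8 in the panel, 5 had enough UMIs, and these 5 were higher in the arc than in deep cortex spots (median 1.35). Parm1, Sulf2, Npr3 and Bcl6 each had fewer than 100 UMIs in deep cortex. The count therefore describes the genes that passed and not the list. Below the minimum, Deptor had 4 UMIs in the arc and 15 in deep cortex, and Tcerg1l 21 and 3. Bcl6, a transcriptional repressor, had 181 CPM in the arc and 67.2 CPM in deep cortex (1.43, 1.09 to 1.78). Fezf2 had 228 CPM in the arc and 133 CPM in deep cortex (0.78, 0.52 to 1.04). The layer 6 list's Crym, a thyroid hormone-binding protein that the hippocampus also expresses, had 188 and 79.5 CPM (1.24, 0.92 to 1.57). Of the 4 near-projecting genes in the panel, the 2 with enough UMIs were higher too. Lypd1, a modulator of nicotinic receptors, had 551 CPM in the arc and 118 CPM in deep cortex (2.22, 1.98 to 2.47), and Tshz2, a zinc-finger factor, 162 and 57.1 CPM (1.51, 1.14 to 1.89). In dentate spots Lypd1 had 1215 CPM, Bcl6 176 CPM and Tshz2 1.14 CPM. Lypd1 and Bcl6 were thus higher in dentate than in deep cortex spots, and Tshz2 was lower. Since the deep cortex spots were chosen by layer 6 genes, this comparison does not set the arc against layer 5.

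Genes used as markers of the whole hippocampus did not all go the same way in the arc, and for Neurod6 the direction depended on the comparison group. Zbtb20, a zinc-finger repressor needed for hippocampal pyramidal identity in mouse, had 13.5 CPM in the arc and 39.0 CPM in other tissue (-1.53, -2.21 to -0.92), and was far lower in the arc than in neuropil spots (13.5 against 122 CPM, -3.17). Deep cortex spots had 12.3 CPM of Zbtb20, close to the arc, but with 22 UMIs in the arc and 17 there it was below the count minimum. Astrocytes also express Zbtb20. Hpca, the calcium sensor hippocalcin, had 195 CPM in the arc and 345 CPM in deep cortex (-0.82, -1.03 to -0.62). Neurod6, a transcription factor of pyramidal neurons, had 69.5 CPM in the arc and 147 CPM in deep cortex (-1.08, -1.42 to -0.74). Its levels in other tissue (50.2 CPM) and neuropil spots (34.8 CPM) were below that of the arc. Gria1, the GluA1 subunit of AMPA receptors, was higher at 554 CPM in the arc and 331 CPM in deep cortex (0.74, 0.58 to 0.91). Over the list of genes shared by hippocampal fields, 3 of 5 were higher than in deep cortex (median 0.35) and 5 of 8 higher than in all other tissue (median 0.46). Set against the label of a pyramidal arc, most CA1 genes measured were high, but they did not stand alone. Over deep cortex, the medians of the genes that passed were 1.79 for CA1, 1.35 for layer 5, 1.37 for subiculum and 1.86 for near-projecting genes. Wfs1 against other tissue and Mpped1 against deep cortex differed little. Zbtb20 was below its level in other tissue and close to its level in deep cortex. Hpca and Neurod6 were below theirs in deep cortex, though Neurod6 was above its level in other tissue.

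The highest and lowest genes of the whole comparison with deep cortex add to this. Dio3, which inactivates thyroid hormone, had the highest ratio of all, with 61.5 CPM in the arc and 2.17 CPM, from 3 UMIs, in deep cortex (4.83, 3.24 to 7.13). Of its 100 UMIs in the arc, 79 lay toward the low-column end, as given further on. Dcn followed Ndst4 with 86.7 and 5.78 CPM (3.91, 2.89 to 5.15). After Dlk1 (3.69) and Fibcd1 (3.23) came Bhlhe22 (3.03), a transcription factor of cortical and hippocampal neurons, the ephrin receptor Epha6 (2.87), Trpc4 (2.86), netrin-G1 gene Ntng1 (2.67) and Nr3c2 (2.43), the mineralocorticoid receptor, which is abundant in hippocampal neurons. At the low end, Pcp4, a calmodulin regulator that marks deep cortical layers and CA2, had 143 CPM in the arc and 1332 CPM in deep cortex (-3.22, -3.43 to -3.02). It was seen in 67.1% of arc spots and in 99.3% of deep cortex spots. Others at this end were Ighm (-4.55), Col5a1 (-4.29), the kainate receptor gene Grik3 (-2.44) and Car10 (-2.43). Oligodendrocyte genes were lower as well, with 0 of 8 higher (median -1.16). Mbp, myelin basic protein, had 1090 CPM in the arc and 2455 CPM in deep cortex (-1.17, -1.26 to -1.09). Whether the share of white matter in the spots played a part in any other difference was not tested.

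**Figure D4:**
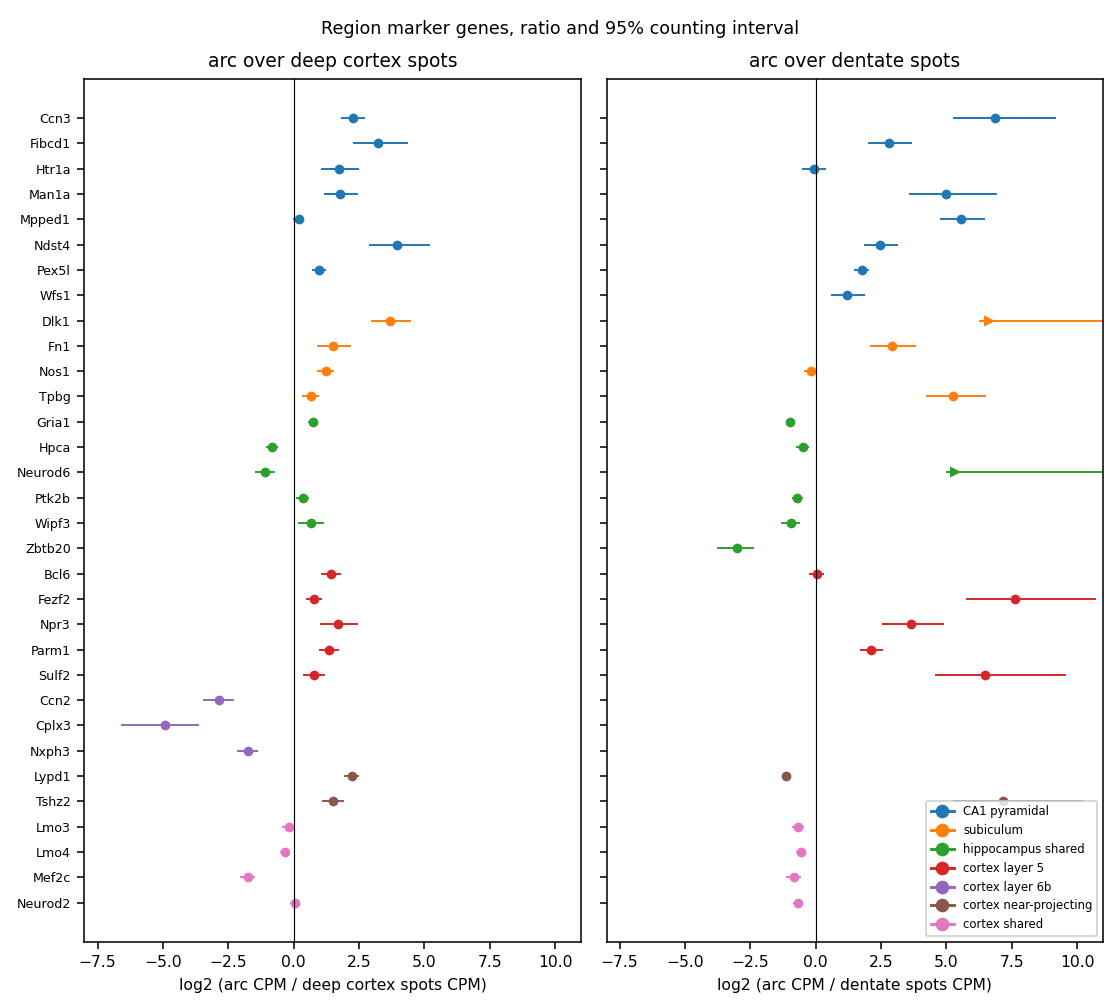
Log2 ratio of UMIs per 1000000 of region marker genes, with exact 95% counting intervals, for the arc over the deep cortex spots (left) and over the dentate spots (right), for genes that passed the count minimum and chose neither group, of which a few are not shown. Against deep cortex the CA1, subiculum, layer 5 and near-projecting genes lie above 0, and the layer 6b genes and Mef2c below it. Triangles are lower bounds where the dentate spots had 0 UMIs, and their intervals have no upper end.

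The dentate spots were the group most unlike the arc. Of 5958 genes used, 551 were at least 2-fold higher (9.25%) and 473 at least 2-fold lower (7.94%), 17.2% in all, with 47.9% above 0. The CA1 list was again higher, in 7 of 8 genes, all 7 of them at least 2-fold (median 2.64). The medians of the subiculum list (4.08, 4 genes) and the layer 5 list (3.63, 5 genes) were higher still, as was the single ventral hippocampus gene that passed (5.67). Ccn3, Mpped1, Man1a, Fibcd1 and Ndst4 reached the count minimum through the arc, as did Dlk1 and Fezf2 of the other lists. These counts and medians therefore describe the genes that passed and not the lists. Without that minimum, the summed list of all 9 CA1 genes had a median of 1201 CPM in arc spots and 209 CPM in dentate spots. Ccn3 had 198 CPM in the arc and 1.71 CPM, from 3 UMIs, in the dentate spots (6.86, 5.30 to 9.14). Mpped1 had 378 and 7.98 CPM (5.57, 4.81 to 6.44), and Man1a, a Golgi mannosidase, 72.6 and 2.28 CPM (4.99, 3.60 to 6.89). Htr1a was the exception, at 57.8 CPM in the arc and 59.8 CPM in the dentate spots (-0.05, -0.47 to 0.37). Neurod6, which granule cells lack, had 113 UMIs in the arc and 0 in the dentate spots, at least 40.7-fold higher. Dlk1 had 272 and 0 UMIs, at least 97.9-fold higher. Fezf2 had 370 UMIs in the arc and 2 in the dentate spots (7.64, 5.78 to 10.69), and Sv2b, a synaptic vesicle protein known to be low in granule cells, 314 and 2 UMIs (7.41, 5.54 to 10.46).

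In the other direction, the 3 measured granule cell genes that did not choose the dentate spots were all at least 2-fold lower in the arc. Calb1, the calcium buffer calbindin, had 213 CPM in the arc and 1034 CPM in the dentate spots (-2.28, -2.45 to -2.11). Plk5, a polo-like kinase, had 11.1 and 291 CPM (-4.71, -5.48 to -4.04). Of the genes shared by hippocampal fields, 6 of 7 were lower in the arc than in the dentate spots, Zbtb20 among them at 13.5 and 110 CPM (-3.02, -3.73 to -2.38). Genes of interneurons and glia were higher in the arc. Sst, the peptide somatostatin, had 1369 CPM in the arc and 24.5 CPM in the dentate spots (5.80, 5.37 to 6.28), and 6 of 6 oligodendrocyte genes were higher (median 2.41). Immediate early genes, which neurons switch on with activity, were higher in 6 of 7 cases, with Nr4a1 at 110 and 5.70 CPM (4.27, 3.36 to 5.36) and the Arc gene at 172 and 18.2 CPM (3.23, 2.70 to 3.81). Dentate spots had a median of 30411 UMIs against 11351.5 in the arc. With both groups kept to spots of 5000 to 20000 UMIs, which leaves 124 arc spots and only 18 of the 55 dentate spots, the astrocyte gene S100b changed direction, with a log2 ratio of -0.46 in place of 1.46 over all spots.

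The neuropil spots lay between the arc and the dentate spots and in part at the outer surface of the cortex. Of 4764 genes used, 263 were at least 2-fold higher in the arc (5.52%) and 297 at least 2-fold lower (6.23%), 11.8% in all, and 61.5% were above 0 (median 0.15). Median-of-ratios scaling moved all ratios down by that amount and gave 170 higher and 393 lower genes, while the mean of per-spot CPM gave 462 and 337. The medians of the layer 5 list (1.83, 5 genes) and the subiculum list (1.31, 4 genes) were above that of the CA1 list (1.19, 8 genes). These medians, too, describe the genes that passed and not the lists. Among single genes, Kctd8, an auxiliary subunit of GABA-B receptors, had 61.5 CPM in the arc and 7.24 CPM in neuropil spots (3.09, 1.82 to 4.74), Pvalb, the interneuron protein parvalbumin, 236 and 44.9 CPM (2.39, 1.86 to 2.97), and Fezf2 228 and 37.6 CPM (2.60, 2.02 to 3.23). Snap25, a SNARE protein, had 2264 and 1006 CPM (1.17, 1.05 to 1.29). Camk2a, whose mRNA is carried into dendrites, was lower in the arc, at 1685 CPM against 4017 CPM in neuropil spots (-1.25, -1.33 to -1.18). All 11 astrocyte genes were at least 2-fold lower in the arc (median -1.48). Gfap had 91.0 CPM in the arc and 792 CPM in neuropil spots (-3.12, -3.39 to -2.86). All 4 microglial genes were at least 2-fold lower (median -1.48), with C1qa at 127 and 384 CPM. Blood and vessel genes were among the lowest, with Hba-a2, a haemoglobin chain, at 476 CPM in the arc and 5062 CPM in neuropil spots (-3.41, -3.52 to -3.30).

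Other cell types were described by their marker lists against all other tissue. Oligodendrocyte genes were lower in the arc in 10 of 10 cases, all at least 2-fold (median -1.87), against 8.85% of all genes at least 2-fold lower. Their summed level was 2098 CPM in the arc and 7683 CPM elsewhere. Astrocyte genes were lower in 10 of 11 cases (median -0.56), microglial genes in 14 of 14 (median -0.65) and endothelial genes in 7 of 7 (median -0.64). The interval lay below 0 for 8 astrocyte, 9 microglial and 4 endothelial genes. Over all 10998 genes used, 4526 were higher and 6472 lower. Genes of GABAergic neurons were mixed, 7 higher and 5 lower (median 0.18). Sst had 1369 CPM in the arc and 811 CPM elsewhere (0.75, 0.69 to 0.82). Cnr1, the cannabinoid receptor CB1, had 316 and 119 CPM (1.41, 1.26 to 1.54), and Reln, the secreted protein reelin, 33.2 and 62.5 CPM (-0.91, -1.33 to -0.52). In spot data, fewer cells of a type and less RNA per cell cannot be told apart.

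Excitatory postsynaptic genes were higher in 24 of 33 cases against other tissue (median 0.30), where 41.2% of all genes were higher, and 21 of them had an interval above 0. The excess was small, with 1 gene at least 2-fold higher. Against deep cortex 14 of 30 were higher (median -0.029), where 50.3% of all genes were. Cacng8, the AMPA receptor auxiliary subunit TARP gamma-8, was higher in both, at 553 CPM in the arc, 288 CPM in deep cortex (0.94, 0.77 to 1.12) and 233 CPM in other tissue (1.25, 1.14 to 1.35). Against deep cortex Cacng8 stayed below 2-fold, and 1 other gene of the list passed it. Presynaptic genes were higher than in other tissue in 16 of 28 cases (median 0.065). In this list 4 genes were at least 2-fold lower, namely Vamp1 with 124 CPM in the arc and 351 CPM elsewhere (-1.50, -1.71 to -1.30), Syt2 (-1.41), Cplx3 (-2.62) and Sv2c (-1.27). Potassium channel genes were higher in 13 of 31 cases (median -0.081), close to the 41.2% of all genes.

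The wider pathways of Pde11a and Gpr161 lay close to the shares over all genes. Of cyclic nucleotide genes, 13 of 31 were higher in the arc than in other tissue (median -0.17), 1 at least 2-fold higher and 2 at least 2-fold lower, where 41.2% of all genes were higher, 1.53% at least 2-fold higher and 8.85% at least 2-fold lower. Pde1a, a calcium- and calmodulin-dependent phosphodiesterase, had 115 and 42.5 CPM (1.44, 1.20 to 1.67), whereas its relative Pde1b had 17.2 and 51.7 CPM (-1.59, -2.18 to -1.04). Of primary cilium and hedgehog genes, 5 of 15 were higher (median -0.19). The one past 2-fold was Mchr1, the ciliary receptor of melanin-concentrating hormone, with 55.4 CPM in the arc and 18.0 CPM elsewhere (1.62, 1.27 to 1.96). Among immediate early genes, 8 of 13 were higher (median 0.12), led by Fosl2 with 232 CPM in the arc, 66.5 CPM in deep cortex (1.80, 1.47 to 2.15) and 65.2 CPM in other tissue (1.83). The genes Egr1 and Arc were lower in arc spots than in deep cortex, at 52.9 against 156 CPM (-1.56) and 172 against 428 CPM (-1.32).

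The arc was not uniform along its length. Its first principal axis on the grid held 77.9% of the positional variance and ran almost along the array columns. The spots were split into 3 stretches along it, with 46 spots in the low-column stretch (columns 32 to 55), 48 in the middle stretch (columns 55 to 80) and 46 in the high-column stretch (columns 77 to 106). Median depth was 14144.5, 11068.5 and 9899 UMIs in that order. The high-column stretch lay mostly outside the largest connected group, which ends at column 80, and took in far-off spots down to array row 63. Its differences from the low-column stretch are therefore also differences between separate groups of spots. Within the largest group alone, 36 of 1741 genes differed at least 2-fold between the end stretches. All genes of the arc spots, the score genes included, vary with the choice of the spots, so these differences are given as values. Between the high-column and the low-column stretch, 42 of the 2627 genes used differed at least 2-fold upwards (1.6%) and 39 at least 2-fold downwards (1.48%). High over middle the shares were 0.567% and 0.218%, and low over middle 0.586% and 0.586%.

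Of the 8 subiculum genes in the panel, 3 had enough UMIs for this split. These 3 were at least 2-fold lower in the high-column than in the low-column stretch, and lower in each stretch than in the one before. Fn1, of the same list but below the count minimum here, did not decline, at 59.9, 64.3 and 69.4 CPM. The decline therefore describes the genes that passed and not the list. Dlk1 had 255, 154 and 58.6 CPM in the low, middle and high stretches (high over low -2.12, -2.77 to -1.53). Tpbg, a Wnt-regulating membrane glycoprotein, had 252, 146 and 93.3 CPM (-1.43, -1.95 to -0.94). Nos1 had 307, 191 and 145 CPM (-1.08, -1.50 to -0.67). Stronger still were Doc2b, a calcium sensor of spontaneous transmitter release, with 301, 101 and 36.9 CPM (-3.03, -3.84 to -2.31), and Col23a1, a transmembrane collagen, with 157, 35.1 and 21.7 CPM (-2.85, -3.95 to -1.91). Lypd1 had 857 CPM in the low stretch and 349 and 345 CPM in the middle and high stretches, so its difference lay between the low stretch and the rest.

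Other genes ran the opposite way or were level. Ndst4 had 39.9, 83.7 and 163 CPM in the low, middle and high stretches (2.03, 1.37 to 2.73), and Hpca 107, 171 and 345 CPM (1.68, 1.27 to 2.11). Coro6, an actin-binding coronin, had 55.3, 70.1 and 226 CPM (2.03, 1.47 to 2.62), and Ier5, an immediate early gene, 50.7, 60.4 and 206 CPM (2.02, 1.44 to 2.64). Fezf2 was level at 218, 240 and 228 CPM (0.06, -0.31 to 0.44), as was Ccn3 at 213, 183 and 193 CPM (-0.14, -0.54 to 0.25), but the other genes of highest ratio over other tissue were not all level. Dcn had 121, 85.7 and 39.1 CPM in the low, middle and high stretches, with the fibroblast gene Igf2 at 72.2, 31.2 and 32.5 CPM and Mgp, also of that list, at 58.3, 19.5 and 30.4 CPM. Drd5 had 4.61, 48.7 and 52.1 CPM, Fbn2 32.2, 17.5 and 4.34 CPM, Stac 27.6, 23.4 and 62.9 CPM, and Cadps2 50.7, 107 and 93.3 CPM, from 2 to 55 UMIs each. The score genes were not level, with Cpne7 at 1666, 1503 and 707 CPM and Gpr161 at 263, 267 and 362 CPM. The haemoglobin gene Hbb-bs had 67.5, 397 and 586 CPM. Of the 11 oligodendrocyte genes in the panel, 4 had enough UMIs. These 4 were higher in the high than in the low stretch (median 1.18), where 1270 of 2627 genes were. Their summed level was 1099, 2294 and 2515 CPM in the low, middle and high stretches. High over middle the median was 0.14, so the larger step lay between the low stretch and the rest. The part of blood and oligodendrocyte genes in the other differences was not tested.

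**Figure D5:**
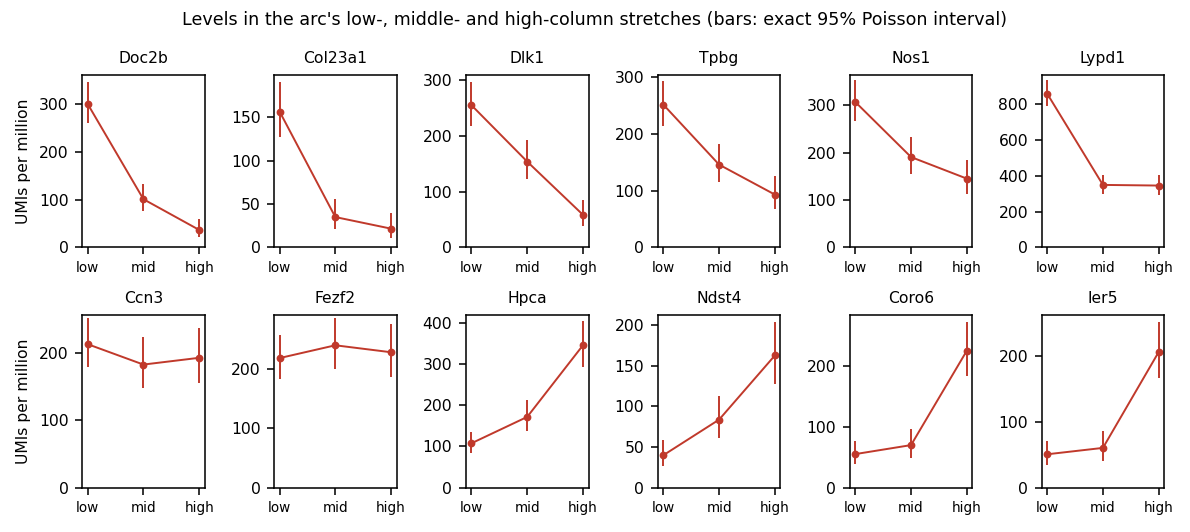
Levels in UMIs per 1000000 in the low-, middle- and high-column stretches of the arc (46, 48 and 46 spots) for 12 genes, with exact 95% Poisson intervals and axes starting at 0. Doc2b, Col23a1, Dlk1, Tpbg and Nos1 decline along the axis, Hpca and Ndst4 climb, Lypd1 is high in the low stretch, Coro6 and Ier5 in the high stretch, and Ccn3 and Fezf2 are level.

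The arc was also split by distance to the nearest dentate spot into 2 sides of 70 spots. Here only 11 of 3672 genes were at least 2-fold higher in the near side (0.3%) and 10 at least 2-fold lower (0.272%). Dlk1 had 252 CPM in the near side and 76.6 CPM in the far side (1.71, 1.29 to 2.15), Vip, an interneuron peptide, 110 and 38.3 CPM (1.53, 0.92 to 2.17) and Dcn 120 and 51.1 CPM (1.23, 0.69 to 1.80). Rasd1, a dexamethasone-inducible Ras-like gene, was the lowest at 16.6 CPM in the near side and 110 CPM in the far side (-2.73, -3.66 to -1.90). Ndst4 had 52.2 and 128 CPM (-1.29, -1.84 to -0.77). The far side holds the scattered spots and more of the high-column end, so the splits are not independent of each other.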

How the data were processed

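Space Ranger 3.1.1 wrote the matrix, per the file headers, and the deposited unit is a raw UMI count for each gene in each spot. The mm10 build comes from the submitters' processing notes. The probe set was not stated. Of the files of the 2 samples, 3 were identical and 2 (positions and image scale factors) were not, so the 1 library was used once, with the WT tissue mark, which leaves 2 spots below 500 UMIs out.

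For each group, counts of its spots were added up and divided by its total. Ratios have exact conditional 95% intervals for 2 Poisson counts (scipy 1.17.1, numpy 2.4.6, pandas 2.3.3, Python 3.11.15), and counts of 0 were set to 3 UMIs over the group. Genes needed 100 UMIs over both groups, and genes of either group's score were left out. The code was tested on simulated counts. UMIs are molecules of 1 section, so intervals and floors cover counting error only. No doublet caller or deconvolution was run. Gene positions are from RefSeq GRCm38.p6.

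The members and lists were chosen with earlier results of these data known. Named genes are the 10 highest and 10 lowest per comparison, up to 4 per list and all region-list genes with enough UMIs, and within the arc the 5 highest and 5 lowest. Fewer are printed, and the values of some list genes are not reported here. The alternatives were other numbers of spots, scores, tissue marks, scalings, count minimums, depth windows and connected groups. The connected groups of the largest 2 were added after seeing the data.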

Additional observations from a re-analysis of the deposited data

Results flagged for a closer look

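The 5 score genes also gave counts where no tissue is marked. On the 235 barcodes outside the WT tissue mark, 139 UMIs of these genes were counted, which is 199 UMIs per 1000000 there, against 1942 per 1000000 in the arc and 258 per 1000000 in the other tissue spots. Of these barcodes, 119 are marked as tissue in the G2-3 list, and 1 would have been among the members by its score.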

How the results depend on the processing

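No paired analysis was possible because both samples hold the same matrix and no replicates exist. Over all alternatives the CA1 median stayed above 0, between 1.13 and 1.36 against other tissue, 0.59 and 1.96 against deep cortex and 2.47 and 3.70 against the dentate spots. Redrawn arcs of 140 spots shared 109 (score without Cpne7) to 140 spots with the one described.

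Counts of genes at least 2-fold different followed the count minimum, since fewer or more genes were used. With 20 UMIs they were 1797 (other tissue), 750 (deep cortex), 2294 (dentate) and 1672 (neuropil), and with 500 UMIs 385, 38, 251 and 115. In spots of 5000 to 20000 UMIs they were 584 (dentate) and 277 (neuropil). Between the end stretches the count was 36 in the largest connected group and 180 with 50 UMIs, and between the near and far sides 63 with 50 UMIs.

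Against deep cortex, the layer 6b median was -2.32 with 200 spots, -2.20 without Pou3f1 in the score, -3.45 with the G2-3 tissue mark and -3.53 with 20 UMIs. The layer 5 median was 0.98 in the largest connected group, 0.94 with the G2-3 mark and 0.78 with 500 UMIs (1 gene). The CA1 median was 0.59 with 500 UMIs (2 genes), and that of genes shared by cortical layers -1.04 with 20 UMIs. Against dentate spots, the CA1 median was 3.70 in the largest group, 3.66 with 500 UMIs (2 genes) and 3.70 in spots of 5000 to 20000 UMIs (18 of 55 dentate spots).

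Changes of direction were counted only where the main interval left out 0. Single genes also had to differ at least 2-fold. Directions turned in these cases. The list shared by cortical layers was 0.071 against other tissue by the mean of per-spot CPM. With 20 UMIs, ventral hippocampus was -0.80 against dentate spots, and against neuropil spots CA3 was -0.078, layer 6b -0.83 and the shared cortical list -0.29. With 500 UMIs, subiculum was -0.19 and near-projecting -1.14 against dentate spots (1 gene each). S100b against dentate spots was -0.46 in spots of 5000 to 20000 UMIs. Apart from the gene sets that the count minimum sets, the cause was not tested. Of 7648 values of single genes under alternatives, 7147 kept their value within the interval. By the count above, 1 changed direction. Changes among genes less than 2-fold different were not counted. One section and spots of mixed cells limit all values.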

Other observations

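Chosen after their values were seen, Dlk1 and Dio3 were among the genes of highest ratio against deep cortex, and both belong to the imprinted Dlk1-Dio3 region of chromosome 12 (GRCm38.p6, Dlk1 at chr12:109452485-109463336 and Dio3 at chr12:110279230-110281097), in which Dlk1 and Dio3 are expressed mainly from the paternal copy. The arc, with 7.74% of the tissue UMIs, held 25.5% of the Dlk1 UMIs and 26.1% of the Dio3 UMIs. Dlk1 was seen in 86 arc spots, Dio3 in 46 and both in 35. Neither was level along the arc. In the low, middle and high stretches Dio3 had 121, 35.1 and 6.51 CPM (79, 18 and 3 UMIs), and Dlk1 255, 154 and 58.6 CPM. Dio3 had 61.5 CPM in the arc, 2.17 CPM in deep cortex, 14.8 CPM in dentate spots (log2 ratio 2.05, 1.42 to 2.74), 15.9 CPM in neuropil spots (1.95, 1.05 to 3.00) and 14.6 CPM in other tissue (2.07, 1.73 to 2.41). Rtl1, of the same region, had 0 UMIs in the arc and 2 elsewhere.

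Imprinted genes of other chromosomes did not all share this pattern. Nnat, neuronatin, a small membrane protein, had 2297 CPM in the arc, 837 CPM in deep cortex (1.46, 1.36 to 1.55), 220 CPM in dentate spots (3.38, 3.23 to 3.54) and 735 CPM in other tissue (1.64, 1.59 to 1.70). Peg3 had 374 CPM in the arc and 412 CPM in other tissue (-0.14, -0.26 to -0.02), and Ndn 370 and 437 CPM (-0.24, -0.36 to -0.12). Grb10, Impact and Mest lay within 0.09 of 0 against other tissue. Against deep cortex, Peg3 was higher in the arc (0.35, 0.17 to 0.54), as was Grb10 (0.68, 0.18 to 1.20), while the intervals of Ndn, Impact and Mest included 0. Against dentate spots all 5 were higher in the arc, between 0.38 (Ndn) and 1.62 (Impact).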
